A study of Homo sapiens with 346 samples.

Results

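The antioxidant response and ferritin genes are 10 genes that protect the cell from oxidants and store its iron, namely NQO1, TXNRD1, TXN, PRDX1, GCLM, HMOX1, SRXN1, FTL, FTH1 and SLC7A11. They were chosen by symbol, and all 10 have a row in both gene tables, among 28806 listed genes in HCT-116 and 29551 in the cells labelled HepG2. HCT-116 was derived from a human colorectal carcinoma, and HepG2 is the name of a line from a human liver cancer. Live cells were sorted without fixation, and fixed cells had been held in 80% methanol at -80 °C for 1 week and rehydrated before sorting. Full-length cDNA of single cells was made with Smart-seq2, and the study compared fixed with live cells to learn what methanol does to the measured transcriptome. Values are in TPM, a measure of a gene's share of the transcripts of a cell that is corrected for transcript length and for depth.

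There were 91 live and 92 fixed HCT-116 cells and 68 live and 83 fixed HepG2-labelled cells with a column. The HCT-116 experiment was done once, and the 2 HepG2 experiments are not told apart by the labels, so a line under 1 treatment was taken as a single sample. Cells are no replicates, so SDs are over cells and no test was made between groups. The fixed libraries were made later than the live ones, so fixation and library batch cannot be told apart. The labels name no experiment shared by both lines, so line and experiment cannot be told apart either. Median depth was 1.8 to 2.5 M (mega) reads per cell, with a range over all cells of 0.2 to 5.3 M. Fixed cells had fewer genes above 0 TPM, with a median of 12031 (live) and 10359 (fixed) in HCT-116 cells. In HepG2-labelled cells it was 13887 and 12293. Ribosomal RNA, almost all of it 18S, took a median of 24.8% of the TPM of live HCT-116 cells, 7.66% of that of fixed ones, and 6.86% and 2.46% in HepG2-labelled cells. A lower share leaves more of the fixed total to every other gene, so each direction was also taken after 2 rescalings. The first divides each cell by its median ratio over widely detected genes, and the second leaves the ribosomal RNA out and brings each cell to the same sum. As deposited, the listed genes of a cell summed to a median of 993455 (live) and 991193 TPM (fixed) in HCT-116. In HepG2-labelled cells the sum was 895442 (lowest 756507) in live and 961172 TPM in fixed cells. Of 17 hepatocyte markers, of which 10 could be scored in the HepG2 table, 0 were above 1 TPM in at least 50% of the live or fixed cells labelled HepG2. Their summed level had a median of 0.157 TPM in the live and 0 TPM in the fixed cells. The name HepG2 is therefore used here only as the label. Among the HepG2-labelled columns, 1 pair was equal, with 1 column named live and 1 named fixed, and 8 columns fell into 2 sets correlated above 0.95. Of 12 intestinal markers, 4 could be scored in the HCT-116 table, of which 1, CDX2, was above 1 TPM in at least 50% of the live and of the fixed cells and the other 3 were not. Of the 12, 8 could be scored for HepG2, and TFF3 was the 1 above that limit. The summed level of the scored intestinal markers had a median of 15.7 and 32.8 TPM there (live, then fixed), against 7.52 and 4.28 TPM in HCT-116 cells. The sums cover 8 and 4 markers, of which 3 are in both tables, so they do not compare the lines.

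Oxidants and electrophiles release the transcription factor NRF2, encoded by NFE2L2, from its adaptor KEAP1. NRF2 then binds the antioxidant response element of its target genes with a small MAF partner, at sites that the repressor BACH1 can also occupy. Its products rebuild glutathione, reduce thioredoxin and peroxiredoxin, degrade heme and store iron. Ferritin is also set at translation, where iron regulatory proteins hold back the mRNA by a stem loop near its start.

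The element's core letters were looked for in the promoter windows that RefSeq (GRCh38.p14) gives for 6 of the 10 members, from 250 bases before to 50 after the start. FTH1, PRDX1, HMOX1 and SLC7A11 had no window. The core TGACNNNGC, read on both strands, was in 3 of the 7 windows, from 2 members, and in 13.3% of all 35116 promoter windows of this length. The sequences below are the 120 bases before the start of the windows that hold it, and of NQO1, a standard NRF2 target whose window does not. Capitals mark the core, and the first TXNRD1 window shows all but the last base of its second match, GCTCCGTCA, which begins 8 bases before the start.
GCLM, chr1:93909431-93909550, minus strand: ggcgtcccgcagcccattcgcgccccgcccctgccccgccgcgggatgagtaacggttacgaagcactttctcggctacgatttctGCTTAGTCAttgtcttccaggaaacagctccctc
TXNRD1, first start, chr12:104215659-104215778, plus strand: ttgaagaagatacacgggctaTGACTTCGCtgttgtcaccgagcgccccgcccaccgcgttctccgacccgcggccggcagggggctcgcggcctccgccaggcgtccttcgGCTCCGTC
TXNRD1, second start, chr12:104286912-104287031, plus strand: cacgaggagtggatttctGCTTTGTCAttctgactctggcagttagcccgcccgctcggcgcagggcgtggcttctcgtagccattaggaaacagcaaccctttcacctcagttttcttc
NQO1, chr16:69726561-69726680, minus strand: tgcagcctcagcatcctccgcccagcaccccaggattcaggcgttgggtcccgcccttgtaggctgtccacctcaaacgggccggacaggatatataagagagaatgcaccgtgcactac

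The match in GCLM begins 34 bases before its start and the first one of the first TXNRD1 window 99 bases before. A window of 300 bases does not cover distant elements, so no match says only that these letters are not in it. For FTL, the 24 bases shown hold CAGTG, the letters found in the loop that iron regulatory proteins read, in capitals with the base that follows.
FTL, chr19:48965335-48965358, plus strand: ctcttgcttcaaCAGTGTttggac

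The loop begins at base 39 of the transcript. The letters CAGTG occur within the first 50 transcribed bases in 6.48% of all windows.

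Mean levels of the members in live HCT-116 cells reached from 3.88 to 2786 TPM. In live HCT-116 cells the mean was highest for FTL and FTH1, followed by PRDX1, TXN, NQO1 and TXNRD1, and was under 10 TPM for SRXN1, GCLM, HMOX1 and SLC7A11. The first 6 had a TPM above 0 in 100% of cells of every group, and the last 4 did not in any group. Together the 10 genes took a median of 0.739% of the TPM of live and 0.869% of fixed HCT-116 cells, and 0.433% and 0.544% in HepG2-labelled cells.

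**Figure D1:**
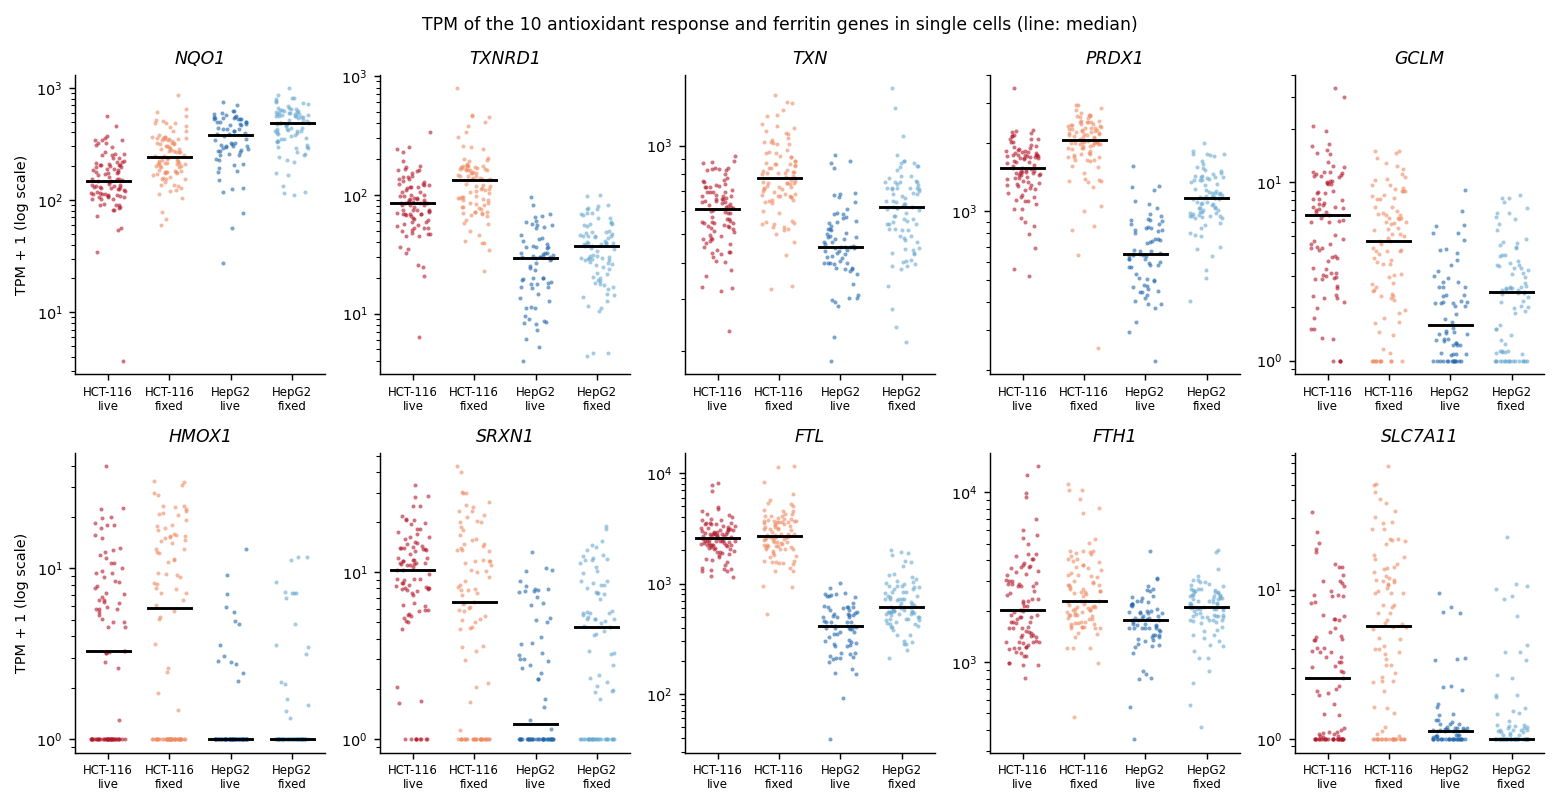
TPM plus 1 (log axis) of each member in each cell, 1 panel per gene, with the 4 groups (each line live, then fixed) side by side and a line at the median. FTL sits at 1138 to 8113 TPM in live HCT-116 cells, above every live HepG2-labelled cell. Live ranges were apart in this direction for 0.248% of 12481 genes. NQO1 has the higher median in the HepG2-labelled cells, and HMOX1 and SLC7A11 have many cells at 0.

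The ferritin chains were the most abundant members. FTH1 encodes the heavy chain, which oxidises iron on entry, and FTL the light chain, which helps the iron core to form. FTL had a mean of 2786 ± 1207 TPM (SD, with 91 cells; lowest 1138, median 2589, highest 8113) in live HCT-116 cells and 3120 ± 1757 TPM (527, 2718 and 11507) in fixed ones. In live HepG2-labelled cells it was 443 ± 210 TPM (38.2, 409 and 1021), and in fixed ones 736 ± 389 TPM (212, 614 and 2000). The ranges of live cells of both lines did not overlap for FTL, which held for 0.248% of 12481 genes in this direction. Those of fixed cells did overlap. FTH1 was 2781 ± 2307 TPM (810, 2022 and 14228) in live and 3002 ± 2014 TPM (473, 2292 and 11263) in fixed HCT-116 cells. It was 1811 ± 645 TPM (353, 1780 and 4552) in live and 2142 ± 709 TPM (415, 2110 and 4566) in fixed HepG2-labelled cells. FTH1 thus overlapped between all 4 groups.

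The balance of the chains differed between the lines. The FTH1 to FTL ratio of TPM within a cell had a median of 0.811 (live) and 0.909 (fixed) in HCT-116, against 4.09 (live) and 2.91 (fixed) in HepG2-labelled cells. FTH1 exceeded FTL in 31 of 91 live and 38 of 92 fixed HCT-116 cells, and in 67 of 68 live and 82 of 83 fixed HepG2-labelled cells. FTH1 was also one of the most uneven abundant genes in HCT-116. Its coefficient of variation (CV) over cells, 0.830, ranked 6 among the genes with a mean of at least 500 TPM in live HCT-116 cells, whose median CV was 0.246, and its CV of 0.671 ranked 11 of 216 in fixed ones. In HepG2-labelled cells FTH1 was nearer to the rest, with a CV of 0.356 (rank 50) in live and 0.331 (rank 62) in fixed cells.

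**Figure D2:**
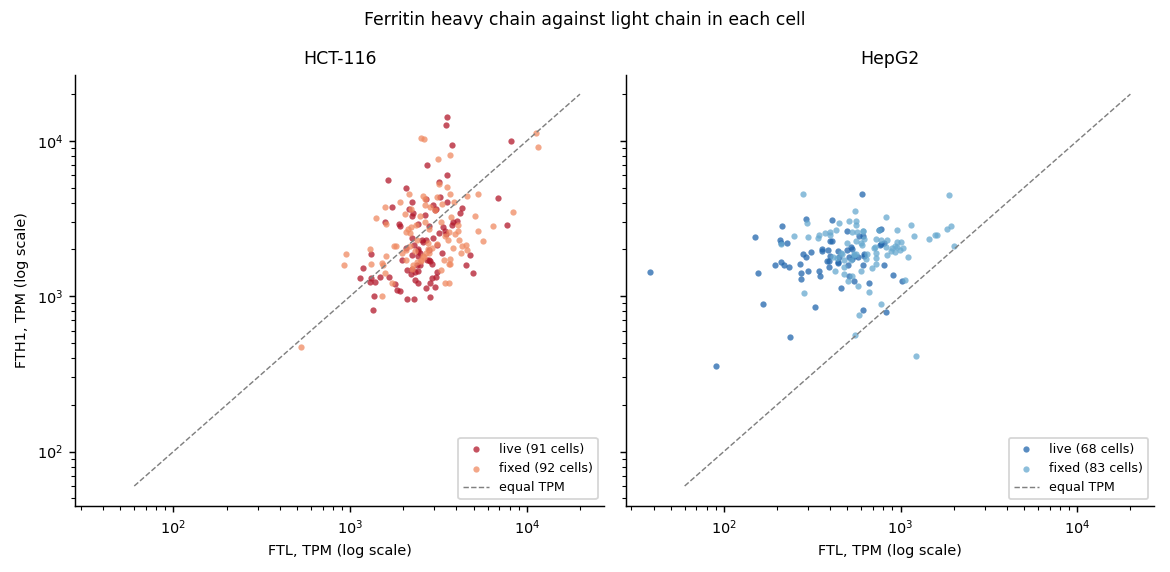
FTH1 against FTL in TPM (both axes log), each point 1 cell, HCT-116 left and HepG2-labelled right, with a dashed line at equal TPM. HCT-116 cells lie on both sides of the line (31 of 91 live and 38 of 92 fixed cells above it), and 67 of 68 live and 82 of 83 fixed HepG2-labelled cells lie above it.

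The thioredoxin members differed in how evenly they were expressed. TXN, thioredoxin itself, reduces disulfides in proteins, TXNRD1 recharges it with NADPH, PRDX1 removes peroxides with its help, and SRXN1 restores over-oxidised peroxiredoxin. PRDX1 had a mean of 1577 ± 438 TPM (lowest 518, median 1561, highest 3496) in live and 2029 ± 506 TPM (250, 2062 and 2960) in fixed HCT-116 cells. It was 692 ± 260 TPM (219, 647 and 1580) in live and 1182 ± 321 TPM (400, 1151 and 1993) in fixed HepG2-labelled cells. For PRDX1 as deposited, 79 of 83 fixed HepG2-labelled cells were above the live median, and 79 of 92 fixed HCT-116 cells were. TXN stayed within 2-fold between the lines, at 603 ± 145.9 and 810 ± 233 TPM in HCT-116 cells (live, then fixed) and 481 ± 145.4 and 632 ± 212 TPM in HepG2-labelled ones. Its CV, 0.242 to 0.336, was the lowest or the second lowest among the members in live and fixed HCT-116 and live HepG2-labelled cells.

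TXNRD1 separated the lines more. It was 94.9 ± 53.8 TPM (lowest 5.29, median 84.4, highest 338) in live and 149.3 ± 113.4 TPM (21.9, 132.9 and 789) in fixed HCT-116 cells. In HepG2-labelled cells it was 29.3 ± 19.6 TPM (3.02, 28.1 and 94.4) in live and 37.7 ± 21.4 TPM (3.42, 36.1 and 98.97) in fixed ones. The ranges overlapped, and 1 of 68 live and 0 of 83 fixed HepG2-labelled cells exceeded the HCT-116 median of the same treatment. SRXN1 was low, at 9.90 ± 6.76 and 8.55 ± 9.35 TPM in HCT-116 cells (live, then fixed) and at 2.26 ± 3.14 and 4.37 ± 4.62 TPM in HepG2-labelled ones. It was above 0 TPM in 90.1% of live and 72.8% of fixed HCT-116 cells, but in 51.5% of live and 68.7% of fixed HepG2-labelled cells. The exact 95% interval (Clopper-Pearson, counting error only) reached from 82.1 to 95.4% in live and from 62.6 to 81.6% in fixed HCT-116 cells. After thinning each cell to 500000 reads, which left out 3 fixed HCT-116 cells, the shares were 87.9%, 71.9%, 47.1% and 63.9% in that order. The order of fixed and live was thus opposite in the lines at equal total reads too, a total that still holds the ribosomal RNA. The intervals of live and fixed HepG2-labelled cells were 39.03 to 63.8% and 57.6 to 78.4%. With 1 sample per group, their overlap does not compare the treatments.

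NQO1 was the member that was higher in the HepG2-labelled cells. It encodes a quinone reductase and is one of the most used readouts of NRF2. NQO1 had a mean of 172.4 ± 92.4 TPM (lowest 2.70, median 146.7, highest 557) in live and 272 ± 136.6 TPM (59.3, 240 and 860) in fixed HCT-116 cells. In HepG2-labelled cells it was 373 ± 162.4 TPM (26.6, 380 and 743) in live and 477 ± 185.2 TPM (109.7, 485 and 991) in fixed ones. The ranges overlapped, and 62 of 68 live and 74 of 83 fixed HepG2-labelled cells lay above the HCT-116 median of the same treatment.

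The lines also differed in the shares of NQO1 and PRDX1 transcripts. The tables per transcript hold CPM (read counts scaled to the depth of the cell), split by kallisto among the 4 listed transcripts of NQO1. The transcripts named here were chosen after their values were seen. The transcript NM_001025434 took a mean of 20.8 ± 8.60% (lowest 0, median 19.5, highest 45.5) of the NQO1 CPM of a cell in live and 22.9 ± 12.4% (6.84, 20.2 and 83.7) in fixed HCT-116 cells. It took 5.30 ± 2.24% (0.524, 5.11 and 11.4) in live and 4.99 ± 2.26% (0, 4.97 and 11.6) in fixed HepG2-labelled cells. Its share exceeded 10% in 85 of 91 live and 89 of 92 fixed HCT-116 cells, and in 3 of 68 live and 3 of 83 fixed HepG2-labelled ones. The remaining CPM was nearly all NM_000903, with 78.1% and 76.7% of the summed NQO1 CPM of HCT-116 cells (live, then fixed) and 92.2% and 92.6% of that of HepG2-labelled cells. Of the 4 listed PRDX1 transcripts, NM_001202431 took 9.16 ± 6.85% (0, 7.75 and 53.1) of the gene's CPM in live and 7.28 ± 4.08% (0, 6.89 and 20.9) in fixed HCT-116 cells. In HepG2-labelled cells it was above 0 in 6 of 68 live and 8 of 83 fixed cells, with a highest share of 1.73% and 2.98%. For both genes the medians of live and fixed cells of a line lay close together, while the ranges over cells overlapped between the lines.

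**Figure D3:**
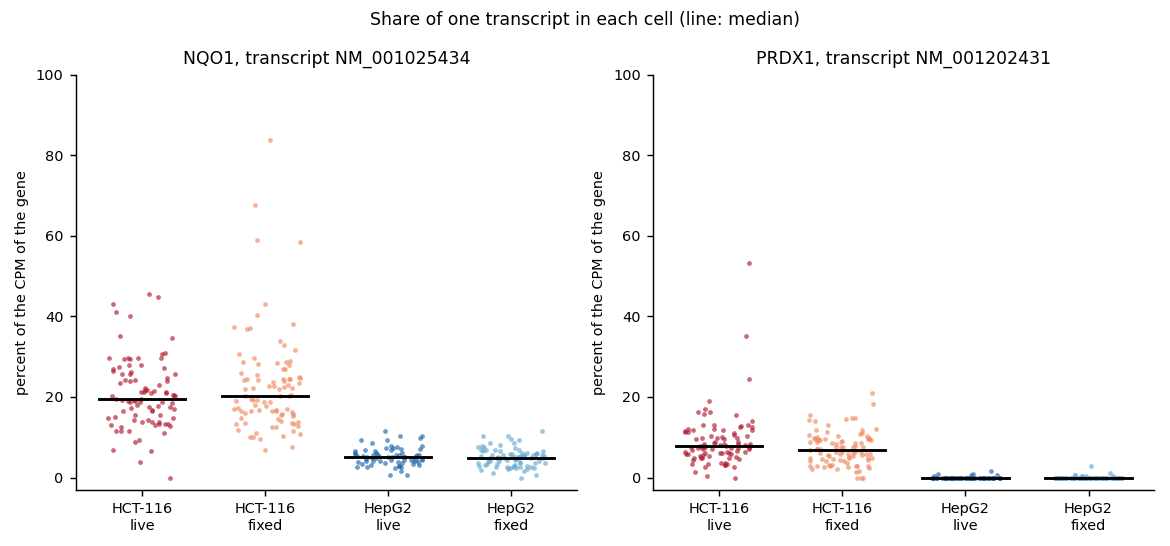
Share in percent of the CPM of NQO1 (left) and PRDX1 (right) given to 1 listed transcript, each point 1 cell, with a line at the median of each group. For NQO1 the medians are 19.5% and 20.2% in HCT-116 cells (live, then fixed) and 5.11% and 4.97% in HepG2-labelled cells, and for PRDX1 7.75% and 6.89% against 0 and 0.

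TXNRD1 has 7 listed transcripts, and those named were spread more widely over the cells. NM_182729 held 38.9% and 45.9% of its CPM in HCT-116 cells (live, then fixed) and 46.9% and 57.5% in HepG2-labelled ones. NM_182743 held 25.5% and 22.4% against 13.1% and 9.85%. Shares in single cells ran from 0 to 100% in live HepG2-labelled cells for both transcripts, so they overlapped between the lines. One transcript held over 99% of the TXN CPM in every group, and HMOX1, SRXN1, FTL and FTH1 have 1 listed transcript each.

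The glutathione and heme members were low and patchy. GCLM is the modifier subunit of the enzyme that limits glutathione synthesis, SLC7A11 is the cystine carrier that supplies it, and HMOX1 opens the heme ring and frees its iron. GCLM had a mean of 6.36 ± 5.77 TPM (lowest 0, median 5.54, highest 32.8) in live and 4.36 ± 3.70 TPM (0, 3.68 and 14.1) in fixed HCT-116 cells. It was 1.25 ± 1.62 TPM (0, 0.584 and 8.09) in live and 1.86 ± 1.98 TPM (0, 1.43 and 7.48) in fixed HepG2-labelled cells. All 4 ranges overlapped, with GCLM above 0 TPM in 95.6%, 88.04%, 79.4% and 79.5% of cells in that order.

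SLC7A11 had the largest difference between fixed and live HCT-116 cells. Its mean was 3.88 ± 5.80 TPM (lowest 0, median 1.56, highest 31.96) in live and 9.69 ± 13.01 TPM (0, 4.74 and 65.8) in fixed cells. In HepG2-labelled cells it was 0.661 ± 1.65 TPM (0, 0.130 and 8.51) in live and 1.13 ± 3.17 TPM (0, 0 and 21.5) in fixed ones. Its share of cells above 0 TPM was 70.3% and 78.3% in HCT-116 cells (live, then fixed) and 63.2% and 46.99% in HepG2-labelled ones, but values under 1 TPM made up most of the last pair. Above 1 TPM it was in 54.9% and 70.7% of HCT-116 and 14.7% and 15.7% of HepG2-labelled cells, so the order of live and fixed in the HepG2-labelled cells depended on the limit. HMOX1 was in 58.2% of live and 58.7% of fixed HCT-116 cells, at 5.10 ± 6.80 and 7.65 ± 8.83 TPM. It was in 20.6% of live (interval 11.7 to 32.1%) and 22.9% of fixed (14.4 to 33.4%) HepG2-labelled cells, at 0.823 ± 2.11 and 1.02 ± 2.51 TPM. The intervals of live and fixed cells overlapped in both lines, but they cover counting error only and do not compare the treatments.

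Fixed cells were compared with live cells by the log2 ratio of mean TPM, and a gene was counted as higher or lower when it passed 1.5-fold and had a mean of at least 1 TPM over both groups. In HCT-116, 4 of the 10 members were higher and 0 lower, while of 11813 genes 12.3% were higher and 16.4% lower. The 4 were SLC7A11 (log2 ratio 1.32), NQO1 (0.66), TXNRD1 (0.65) and HMOX1 (0.59). The median of the members was 0.39 against 0.17 for all genes, with GCLM at -0.55 and SRXN1 at -0.21. Among fixed cells, 80 of 92 exceeded the live median of NQO1, 66 of 92 that of TXNRD1 and 61 of 92 that of SLC7A11. These counts are for TPM as deposited, where 61.3% of the 11813 genes had a positive ratio.

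After either rescaling 1 member was past 1.5-fold higher and 1 lower in HCT-116, without a share of all genes to set beside it. Rescaling moved the median of all genes by -0.20 with the median ratio and by -0.31 with ribosomal RNA left out. SLC7A11 then stayed past 1.5-fold, at 1.08 and 1.01, and GCLM passed it downwards, at -0.73 and -0.85. NQO1 (0.47 and 0.35) and TXNRD1 (0.44 and 0.33) fell under the limit, and FTL (-0.03 and -0.14) and FTH1 (-0.12 and -0.21) turned negative. With either rescaling 6 members had a positive and 4 a negative ratio, and the members' median was 0.18 or 0.09 against -0.04 or -0.15 for all genes. The ratio was positive for 46.9% or 35.9% of all genes. With either rescaling 7 members, NQO1 and TXNRD1 among them, lay above the median of all genes.

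In HepG2-labelled cells all 8 members that passed the limit on the mean had a positive log2 ratio, also with both rescalings. Of all genes that passed it, 59.9% had a positive ratio as deposited, and 44.6% and 48.1% after the rescalings. Of the 8 members that passed the limit on the mean, 3 were higher and 0 lower, while of 12486 genes 15.6% were higher and 17.6% lower. The 3 were SRXN1 (0.95), PRDX1 (0.77) and FTL (0.73), and GCLM (0.57) fell just short of the fold. HMOX1 and SLC7A11 did not pass the limit on the mean. Their ratios of means were positive too, but 33 of 83 fixed cells exceeded the live median of SLC7A11. The members' median was 0.48 against 0.15 for all genes, and rescaling gave 0.25 or 0.32 for the members against -0.07 or -0.03. SRXN1 stayed past 1.5-fold at 0.76 and 0.81, PRDX1 was at 0.55 and 0.61, and FTL fell to 0.45 and 0.54. The difference between the lines was not tested.

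Between the lines the members were mostly lower in the HepG2-labelled cells. Among live cells 7 of 10 passed 2-fold lower and 1, NQO1, higher, while of 12481 genes 18.7% were lower and 22% higher. They were FTL (-2.65, or 6.28-fold lower), HMOX1 (-2.63), SLC7A11 (-2.55), GCLM (-2.35), SRXN1 (-2.13), TXNRD1 (-1.70) and PRDX1 (-1.19). The order of the first 3 depended on the scale, with HMOX1 first after either rescaling (-2.74 and -2.84, against -2.45 and -2.80 for FTL). FTL was the 1 member whose live ranges were apart, which held for 0.248% of the genes in this direction. NQO1 was higher by 1.12, and by 0.94 with ribosomal RNA left out, which is under 2-fold. TXN (-0.33) and FTH1 (-0.62) stayed within 2-fold.

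Fixed cells gave the same directions for all 10 members with fewer past the fold. There 5 of 10 were lower and 0 higher, against 18% and 22% of 12232 genes. They were SLC7A11 (-3.10), HMOX1 (-2.91), FTL (-2.08), TXNRD1 (-1.99) and GCLM (-1.23), with SRXN1 at -0.97, PRDX1 at -0.78 and NQO1 at 0.81. The median over the members was -1.91 for live and -1.10 for fixed cells, and that of all genes 0.07 in both. The live median moved to -0.90 when only the 6 members with a mean of at least 10 TPM were kept, because the 4 low members had some of the largest ratios.

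Of the NRF2 regulators, 1 of 12 was higher and 2 lower in fixed HCT-116 cells, and 2 of 10 were higher and 0 lower in fixed HepG2-labelled cells. After either rescaling 2 were higher and 2 lower in HepG2-labelled cells, and 1 was higher and 2 or 3 lower in HCT-116. Between live lines 0 of 11 were higher and 1 was lower. For these lists, as for the members, the share of all genes past the fold was 12.3% higher and 16.4% lower in fixed HCT-116 cells, 15.6% and 17.6% in fixed HepG2-labelled cells, and 22% and 18.7% between live lines. These shares are for TPM as deposited. Rescaling moved the median of all genes by -0.20 or -0.31 in HCT-116 and by -0.22 or -0.17 in HepG2-labelled cells. Counts after rescaling, for the members and the lists, therefore stand without a share of all genes past the fold. DPP3, which competes for KEAP1, was lower in fixed HCT-116 cells (-0.60) and, among fixed cells, higher in HepG2-labelled ones (1.13). NFE2L2 was 46.04 ± 21.5 and 55.8 ± 29.1 TPM in HCT-116 cells (live, then fixed) and 31.1 ± 13.2 and 39.4 ± 19.9 TPM in HepG2-labelled cells. KEAP1 was 40.6 ± 16.4 and 31.3 ± 13.99 TPM, and 43.5 ± 21.4 and 29.7 ± 17.1 TPM, in the same order. BACH1 stayed at or under 3.001 TPM in every group, with 1.49 ± 2.49 in live and 3.001 ± 2.88 in fixed HepG2-labelled cells, a log2 ratio of 1.01. KEAP1 was thus the one of the 3 with a negative fixed to live ratio in both lines (-0.37 and -0.55 as deposited), and NFE2L2 had a positive one (0.28 and 0.34), which turned to -0.04 in HCT-116 with ribosomal RNA left out.

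The other genes of the pathways were counted from lists. Of the other NRF2 targets, 2 of 25 were higher and 2 lower in fixed HCT-116 cells, and 11 of 29 higher and 1 lower in fixed HepG2-labelled cells. Either rescaling gave 1 higher and 4 or 6 lower in HCT-116, and 8 higher and 2 or 1 lower in HepG2-labelled cells. In HepG2-labelled cells GPX2, a glutathione peroxidase of epithelia, went from 6.98 ± 13.6 to 33.5 ± 45.02 TPM, and IDH1, which makes NADPH, from 68.2 ± 38.2 to 126.8 ± 74.8 TPM. Also higher there were TRIM16L (log2 ratio 1.01) and PIR (0.71). Between the lines the same list was mixed, with 6 of 26 higher and 6 lower in live HepG2-labelled cells. AKR1C3, an aldo-keto reductase, was at 56.1 ± 110.8 against 0.934 ± 3.36 TPM, and UGDH, which makes UDP-glucuronate, at 245 ± 174.5 against 36.7 ± 17.6 TPM. The export pump ABCC2 was at 0.132 ± 0.597 TPM against 23.3 ± 16.3 TPM, and ME1, malic enzyme, at 6.36 ± 5.45 against 32.3 ± 17.7 TPM. TRIM16 was higher in fixed HepG2-labelled than in fixed HCT-116 cells (2.53), where 11 of 29 were higher and 5 lower.

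In the thioredoxin and peroxiredoxin list 1 of 18 was higher and 1 lower in fixed HCT-116 cells, and 6 of 19 higher and 1 lower in fixed HepG2-labelled cells. Either rescaling gave 0 higher and 3 lower in HCT-116, and 3 higher and 2 lower in HepG2-labelled cells. Past the fold in HepG2-labelled cells with a mean of at least 10 TPM were SESN1 (1.604), the methionine sulfoxide reductase MSRB1 (0.91), TXNDC17 (0.71) and the mitochondrial PRDX3 (0.60). The lower one was TXNRD2, the mitochondrial thioredoxin reductase, from 11.4 ± 8.37 to 3.71 ± 4.25 TPM (live, then fixed), with a mean over both groups under that limit, named after its values were seen. Between live lines 1 of 19 was higher and 2 lower. TXNIP, which binds and blocks thioredoxin, was at 47.5 ± 38.6 TPM in live HepG2-labelled cells and 0.00149 ± 0.0142 TPM in live HCT-116 cells, and is listed at 0 in all fixed HCT-116 cells. PRDX3 was at 158.7 ± 55.5 against 481 ± 143.1 TPM, and GLRX, glutaredoxin, at 2.11 ± 3.80 against 45.9 ± 43.6 TPM. TXN, in contrast, differed by less than 2-fold.

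The glutathione list had 2 of 21 higher and 1 lower in fixed HCT-116 cells, and 9 of 21 higher and 1 lower in fixed HepG2-labelled cells, with 5 or 6 higher and 1 lower after rescaling, which gave 1 higher and 3 lower in HCT-116. MGST1 (0.98) and MGST2 (0.86), membrane glutathione transferases, were among the higher ones in HepG2-labelled cells, and MGST2 was also past the fold in HCT-116 (0.63), though not after rescaling (0.43 and 0.35). SLC3A2, the partner chain of SLC7A11 in the cystine carrier, was the lower one, from 90.3 ± 47.7 to 34.8 ± 35.9 TPM (-1.38). Between live lines 4 of 21 were higher and 7 lower, and 9 lower with ribosomal RNA left out. GPX1, the main cytosolic glutathione peroxidase, was at 0.0276 ± 0.178 TPM in live HepG2-labelled against 330 ± 89.3 TPM in live HCT-116 cells. GSTM3, a glutathione transferase, was at 174.9 ± 93.7 against 0.131 ± 0.196 TPM, GSTM4 was higher by 1.62 and GSTO1 lower (-1.83). GPX1 and GSTM3 kept these levels in fixed cells, at 0.0376 ± 0.249 against 376 ± 126.7 TPM and 194 ± 103.1 against 0.169 ± 0.283 TPM.

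Of the 4 scored genes for superoxide dismutases, their copper chaperone and catalase, CCS, the copper chaperone, was lower in fixed cells of both lines (-0.98 in HCT-116 and -0.65 in HepG2-labelled cells), and SOD2, the mitochondrial dismutase, was lower in HepG2-labelled cells (-1.604 live and -1.23 fixed). Of 21 other genes of iron handling, 0 were higher and 2 lower in fixed HCT-116 cells, 3 higher and 1 lower in fixed HepG2-labelled cells, and 1 higher and 4 lower in live HepG2-labelled against live HCT-116 cells. Either rescaling left 1 higher and 2 lower in fixed HepG2-labelled cells, and gave 0 higher and 2 or 4 lower in fixed HCT-116 cells. IREB2, an iron regulatory protein, went from 9.55 ± 4.35 to 15.9 ± 7.80 TPM in HepG2-labelled cells (0.73, and 0.49 or 0.57 after rescaling), and PCBP2, which hands iron to ferritin, was higher by 1.02. The iron importer SLC39A14 was at 4.80 ± 3.68 in live HepG2-labelled against 27.5 ± 16.6 TPM in live HCT-116 cells.

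SLC7A11 is also a target of ATF4, the factor of the amino acid response, so the ATF4 list was set beside it. In fixed HCT-116 cells 3 of 15 ATF4 targets were higher and 3 lower, but 1 was higher and 6 or 7 lower after rescaling. DDIT3 (1.39) and the serine enzyme PSAT1 (0.75) were higher and the amino acid carriers SLC7A5 (-1.16) and SLC1A5 (-1.44) lower. In fixed HepG2-labelled cells 0 of 14 were higher and 3 lower, among them SLC3A2 and SLC1A5 (-1.66), and 6 or 5 were lower after rescaling. Against HCT-116, 10 of 15 were lower in HepG2-labelled cells both live and fixed, and 10 or 11 after rescaling. ATF4 itself was at 86.7 ± 73.1 against 395 ± 211 TPM in fixed cells, ASNS, asparagine synthetase, at 32.96 ± 31.2 against 132.7 ± 144.8 TPM in live cells, and PSAT1 at 0.00520 ± 0.0429 against 138.9 ± 108.3 TPM in live cells.

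Co-variation of the members over the cells of a group was weak. The median Spearman correlation over the 45 pairs was 0.05 (live) and 0.04 (fixed) in HCT-116 and 0.17 (live) and 0.15 (fixed) in the HepG2-labelled cells. The median with other genes was 0.02, 0.03, 0.06 and 0.05 in that order. These correlations are over 68 to 92 cells that share a line, a library batch and a depth range, and are given as a description. Of the 45 pairs, 13 were above 0 in all 4 groups, 0 were above 0.2 in all 4 and 0 were below 0 in all 4. In live HepG2-labelled cells the members also went with the sum of the gene table (0.60 for PRDX1, 0.47 for NQO1 and -0.40 for FTL), and holding the number of genes detected constant lowered the median over pairs from 0.17 to 0.11. Rescaling by the median ratio lowered it to 0.04 in live and 0.07 in fixed HepG2-labelled cells, against 0.03 and 0.01 in HCT-116. With ribosomal RNA left out it was 0.11 and 0.12 in HepG2-labelled cells, against 0.07 and 0.03 in HCT-116. The size of the value thus depended on the scale, while the order of the lines did not. The median with other genes is given only as deposited, so it is no background for the rescaled values. The part of the table sum in the correlations was not tested.

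The pair with the highest mean over groups was TXN and PRDX1, the carrier and its peroxidase, at 0.46, 0.30, 0.21 and 0.15 over the groups (HCT-116 live and fixed, then HepG2-labelled live and fixed). NQO1 and FTH1 followed with 0.28, 0.25, 0.39 and 0.16, and PRDX1 and GCLM with 0.17, 0.18, 0.35 and 0.25. FTL and FTH1 went together in HCT-116 cells (0.42 and 0.34) and hardly in HepG2-labelled ones (0.12 and 0.02). FTL was below 0 with 8 of the 9 other members in live and 7 of 9 in fixed HepG2-labelled cells, down to -0.40 with GCLM, and with 1 of 9 in live and 5 of 9 in fixed HCT-116 cells. The median of FTL with other genes was also below 0, at -0.05 and -0.04 in HepG2-labelled cells (live, then fixed) and -0.02 in both HCT-116 groups. TXNRD1 and PRDX1 were at 0.57 in live and 0.29 in fixed HepG2-labelled cells and near 0 in HCT-116 (-0.03 and 0.02).

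**Figure D4:**
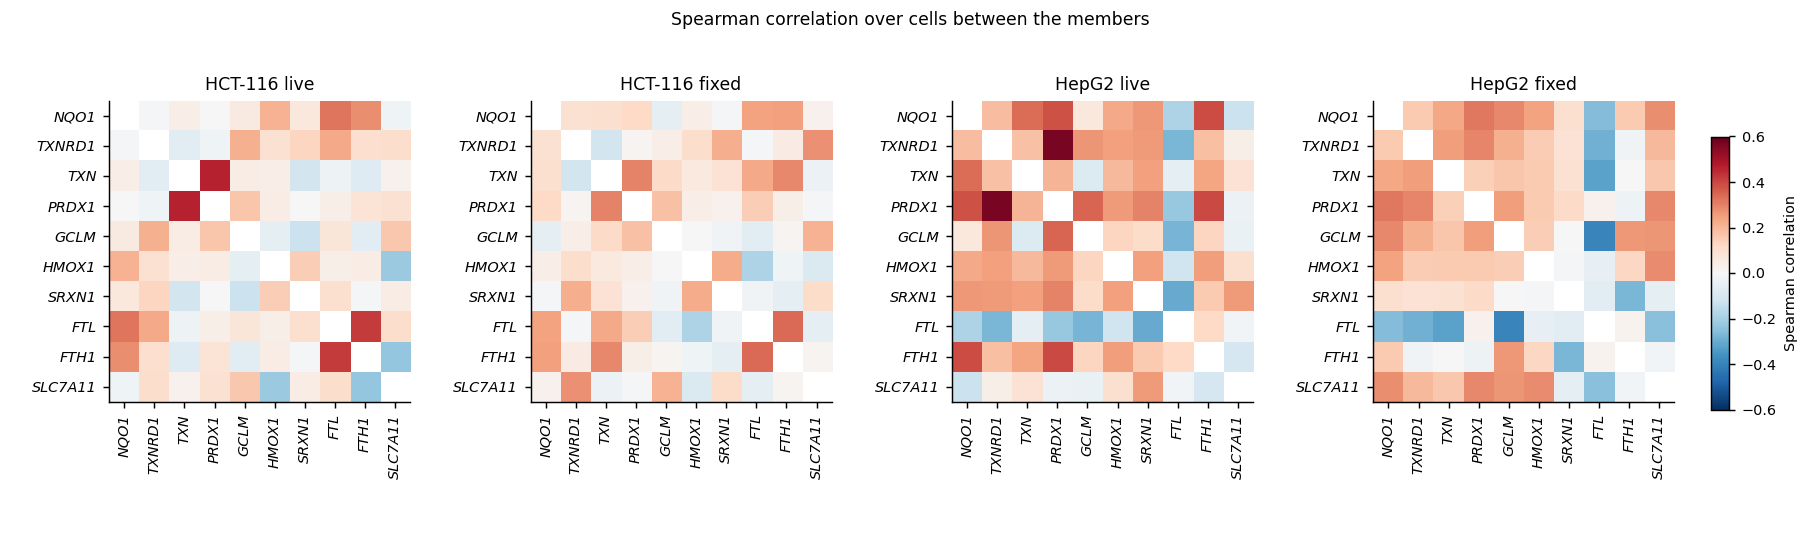
Spearman correlation over cells for the 45 pairs of members, 1 square panel per group, red above and blue below 0 on a scale from -0.6 to 0.6. The FTL row is mostly blue in HepG2-labelled cells, where 8 of 9 live and 7 of 9 fixed correlations are below 0. Its median with other genes is -0.05 (live) and -0.04 (fixed) there. The strongest square is TXNRD1 with PRDX1 at 0.57 in live HepG2-labelled cells.

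The genes most like each member were ranked by the mean of its 4 Spearman correlations over 8945 genes that at least 50% of each group's cells held, a limit that HMOX1 and SLC7A11 did not meet. Among the members that met it, none was among the 3 most like another member. PRDX1 was most like PSMB2, a proteasome subunit (mean 0.57), HSPE1 (0.52) and NME1 (0.52), and TXN most like USMG5 (0.48), TOMM6 (0.47) and BOLA2B (0.46). FTL was most like RPL13A (0.43) and RPS19 (0.41), both ribosomal proteins, with 0.64 for RPL13A in live HepG2-labelled cells. FTH1 was most like EPAS1 (0.39), AP1M2 (0.37) and FTH1P3 (0.36), and FTH1P3 is its own pseudogene, whose reads the counting could split from it. SLC7A11 was most like ASNS (0.38), SLC3A2 (0.36) and MTHFD2 (0.36), with 0.61 for ASNS in live HCT-116 cells, and TXNRD1 like GARS (0.37), MTHFD2 (0.35) and PFKP (0.35). SRXN1 was most like SLC7A5 (0.30), HSPA9 (0.29) and SLC3A2 (0.29), GCLM like RAC1 (0.41), GADD45GIP1 (0.37) and H2AFV (0.36), NQO1 like NANS (0.36), PPP1CA (0.34) and BCAS4 (0.33), and HMOX1 like MRPS25 (0.27), UBE2A (0.26) and MRPL34 (0.26). The median over all genes was between -0.04, for FTL, and 0.09, for PRDX1.

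Look-alike rows were small beside the ferritin genes. FTH1P3 had a mean of 0.882 to 1.33 TPM in the 4 groups, FTLP10 of at most 0.0889 TPM and FTH1P18 of at most 0.0390 TPM. TXNL1, a thioredoxin-like gene of its own, was at 98.9 ± 41.5 and 135.3 ± 51.2 TPM in HCT-116 cells (live, then fixed) and at 56.1 ± 18.96 and 66.4 ± 27.9 TPM in HepG2-labelled cells.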

How the data were processed

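Single live and methanol-fixed cells of both lines were sequenced with Smart-seq2. The authors quantified reads with kallisto 0.46.0 on GRCh38, summed transcripts to genes with tximport, kept cells with more than 4000 genes and deposited TPM per gene. The tables that the authors deposited per transcript hold CPM (not divided by length), and the step between CPM values gave the total reads per cell to 0.1 M reads. Of 346 labelled cells 334 have a column, named by line and treatment. Columns were grouped by these names.

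From the deposited TPM, means, SDs, medians and log2 ratios of means over cells were computed, with exact (Clopper-Pearson, 95%) intervals for shares, Spearman correlations within groups, and shares after thinning to 500000 reads (3 fixed HCT-116 cells had fewer). Intervals cover counting error only. No test was run, since each group is 1 sample. Genes counted had a mean of at least 1 TPM over both groups, with limits of 1.5-fold between treatments and 2-fold between lines. Named beside the members are, per list and comparison, up to 4 genes with the largest log2 ratio among those with a mean of at least 10 TPM and past the fold, together with NFE2L2, KEAP1 and BACH1, and the 3 genes most like each member. Some genes that this rule names are not reported here. TXNRD1 and PRDX1 transcripts were chosen after their values were seen, as was the NQO1 transcript. The members and lists were chosen with earlier results of these data known.

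The alternatives were pseudocounts of 1 and 0.1 on the log2 scale, medians, median-ratio rescaling (5411 genes), ribosomal RNA left out, CPM, a mean of at least 10 TPM, no filter, a limit of 1 TPM for detection, Pearson's and partial coefficients, and cells left out (the equal columns; 6 columns correlated above 0.95 with another) or paired on total reads. Transcript and gene loci are those of RefSeq. The work used Python 3.11.15, numpy 2.4.6, pandas 2.3.3, scipy 1.17.1 and matplotlib 3.10.9, and the computations were tested on simulated data.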

Additional observations from a re-analysis of the deposited data

Results flagged for a closer look

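GCLM and SRXN1 had fixed to live log2 ratios of opposite sign in the 2 lines. For GCLM the ratio was -0.55 in HCT-116 and 0.57 in HepG2-labelled cells, and for SRXN1 it was -0.21 and 0.95. Each ratio rests on 1 sample per group, and the difference between the lines was not tested. The signs stayed the same after median-ratio rescaling (-0.73 and 0.32 for GCLM, -0.41 and 0.76 for SRXN1) and with ribosomal RNA left out (-0.85 and 0.41, -0.53 and 0.81).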

How the results depend on the processing

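Of 92 recomputed summaries (the members' median log2 ratios, their counts of widely detected members and their median correlations), 90 kept their direction and stayed within the limits set for them (1.5-fold, or 1 SD over the pairs for a correlation), and 0 turned direction. The exceptions were both for live HepG2-labelled against live HCT-116 cells, where the members' median of -1.91 became -1.26 as a difference of mean log2(TPM + 1), a scale that understates low genes, and -0.90 with genes of at least 10 TPM, which leaves 6 members. The limit for correlations, 0.12 to 0.20, was wide beside medians of 0.04 to 0.17. A fall from 0.17 to 0.04 in live HepG2-labelled cells thus counted as kept. Some settings could not change a value, such as no filter for the members' ratios, or left-out columns in HCT-116, which had none. Of 1376 recomputed values of single genes, shares of cells, transcript shares and the ferritin ratio, 81 moved by more than 1.5-fold or out of their interval. They lay mostly in the log2 pseudocount and median settings, which act on genes with many cells at 0. Among them the SLC7A11 ratio of fixed to live HepG2-labelled cells went from 0.78 to 0.09 and -0.000388 on the log2 scale with pseudocounts of 1 and 0.1. Transcript shares and ferritin ratios were recomputed only for other sets of cells, settings added after seeing the data, and none moved by more than 1 SD over cells. No paired analysis was possible because the columns carry no replicate number that the labels tie to a culture and no result comes from a test. Depth limits HMOX1, SLC7A11, GCLM and SRXN1, whose shares fell at 500000 reads.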
